A study of Mus musculus with 16 samples.

Results

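The genes described here are 10 genes that astrocytes raise when they become reactive: the intermediate filament genes Gfap and Vim, the secreted protein genes Serpina3n, Timp1 and Lcn2, the receptor genes Osmr, Cd44 and S1pr3, and the signalling genes Stat3 and Socs3. They were chosen by name, whatever their signal, but with earlier results of these data known, so counts over them are descriptions. All were found through the gene names of the Agilent array, on which S1pr3 carries its older name Edg3. They have 20 probes among the 41174 probes and 10 genes among the 27670 gene names of the array. The samples were cerebella of 4 Npc1-/- and 4 wild-type (Npc1+/+) mice at 3 weeks of age, with 1 Cy3-labelled array per sample. The Npc1-/- mice were homozygous for the Npc1m1N allele of the BALB/cNctr-Npc1m1N/J strain, were bred in house from BALB/c heterozygotes and were genotyped from tail DNA. The mutation is carried by every cell of these animals, and whole cerebellum was measured, so the cell type behind a signal is not given by the assay. A further 8 Illumina arrays of the same design were not used here, because their probe numbers were not paired with gene names. The labels do not say which mouse was put on which array.

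The NPC1 protein exports cholesterol from late endosomes and lysosomes. In Niemann-Pick type C disease, which follows when it is missing, cholesterol and sphingolipids build up in these organelles and Purkinje cells of the cerebellum die. Reactive astrocytes are astrocytes that have changed after injury, inflammation or neurodegeneration, and a strong GFAP signal is their usual histological mark. One well studied route to that state runs through cytokines of the interleukin-6 family, which bind receptors containing gp130 (encoded by Il6st), activate JAK kinases and the transcription factor STAT3, and are held back by the feedback inhibitor SOCS3. In the cerebellum the astrocytes include the Bergmann glia, whose fibres run beside the Purkinje cell dendrites.

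Signals are given as log2 of the processed signal relative to the array's own 75th percentile, so 0 is the 75th percentile of that array. A log2 value is not comparable between probes. A fold change is Npc1-/- over wild type, and a gene is said to have risen or fallen only where limma's adjusted p, over all 17983 genes tested, was under 0.05. Of these genes 0.767% passed that threshold, 132 higher in Npc1-/- (0.734%) and 6 lower (0.0334%). The numbers of probes above background were 22182 to 28137 per array, the lowest on wild-type replicate 2, and arrays correlated with each other at 0.969 to 0.994. The arrays lay on 4 slides, 3 of which held both genotypes, and were scanned on 2 days. Npc1 itself had signals of -2.53, -2.44, -2.32 and -2.60 on the Npc1-/- arrays, against -0.52, -0.40, -0.64 and -0.37 on the wild-type arrays, 3.98-fold lower in Npc1-/- (limma, adjusted p = 0.00045). All 6 Purkinje cell and all 6 granule cell markers examined were well above background on all 8 arrays.

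Several of the genes are read by more than 1 probe. The probes of Timp1 are shown here, 5' to 3' on the gene's strand, with mm7 coordinates as the array files give them. Exons and untranslated regions were not assigned, because no annotation of that build was used. The 3 Timp1 probes are shown because they lie in 1 order along the gene on the plus strand of the X chromosome and gave signals of very different brightness. The first ends where the second begins, and the 60 bases of the second are spread over a span of 250 bases.
Timp1 probe A_51_P512384, chrX:19305929-19305988: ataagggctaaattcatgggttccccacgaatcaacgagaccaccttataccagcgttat
Timp1 probe A_51_P512379, chrX:19305989-19306238: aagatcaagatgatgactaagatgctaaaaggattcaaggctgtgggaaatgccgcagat
Timp1 probe A_52_P87713, chrX:19307699-19307758: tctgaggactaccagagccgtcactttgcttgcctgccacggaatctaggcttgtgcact

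Promoter windows are shown for the 3 genes in which a search of letters for the STAT motif TTCNNNGAA or the AP-1 motif TGANTCA, both of which read the same on either strand, found a match. All 10 genes matched a RefSeq promoter (GRCm38.p6, 250 bases before to 50 bases after the gene's start), and capitals mark the matches. The STAT motif was found in 2 of the 10 and in 8.3% of all 32851 promoters. The AP-1 motif was found in 1 of the 10 and in 7.81% of all promoters. A match is a run of letters and was not tested for binding.
Gfap promoter, chr11:102897151-102897450, minus strand, STAT motif at positions -2 to 7 from the start: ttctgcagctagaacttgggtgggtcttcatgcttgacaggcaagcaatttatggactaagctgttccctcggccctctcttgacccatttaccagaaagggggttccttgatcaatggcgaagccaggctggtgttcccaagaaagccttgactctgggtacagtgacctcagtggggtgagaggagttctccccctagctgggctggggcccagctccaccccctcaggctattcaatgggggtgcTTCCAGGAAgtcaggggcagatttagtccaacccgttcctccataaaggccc
Socs3 promoter, chr11:117969317-117969616, minus strand, STAT motif at positions -154 to -146: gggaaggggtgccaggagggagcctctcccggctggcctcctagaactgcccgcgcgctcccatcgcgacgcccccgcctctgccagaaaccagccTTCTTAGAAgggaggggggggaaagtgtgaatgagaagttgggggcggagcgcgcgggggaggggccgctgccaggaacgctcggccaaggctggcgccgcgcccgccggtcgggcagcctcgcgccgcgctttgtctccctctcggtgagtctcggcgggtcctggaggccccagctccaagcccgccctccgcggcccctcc
Osmr promoter, chr15:6874264-6874563, minus strand, AP-1 motif at positions 4 to 10: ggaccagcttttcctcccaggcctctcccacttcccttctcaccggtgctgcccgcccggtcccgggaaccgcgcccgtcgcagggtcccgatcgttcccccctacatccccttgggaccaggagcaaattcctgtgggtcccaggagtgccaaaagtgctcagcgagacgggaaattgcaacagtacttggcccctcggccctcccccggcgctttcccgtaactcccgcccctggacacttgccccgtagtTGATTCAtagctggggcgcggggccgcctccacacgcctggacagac
Gfap and Socs3, the 2 genes with the STAT motif in this window, had log2 fold changes of 1.08 and 0.02 (Npc1-/- minus wild type), described below.

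Of the 10 genes, 9 were tested, each through a probe well above background on all 8 arrays, so none of the 9 entered through its signal in 1 genotype. Osmr was the only one that rose, 1.56-fold, and none fell. Gfap was 2.12-fold and Serpina3n 1.89-fold higher in Npc1-/- cerebella, with signals in the genotypes that did not overlap, but their adjusted p-values were 0.0516 and 0.138. The log2 fold change was positive in 9 of 9 genes, against 46.6% of all genes tested, and its median was 0.37, against -0.02 over all genes. In 4 of the 9 (Gfap, Serpina3n, Osmr and Timp1) every Npc1-/- array lay above every wild-type array, against 2.96% of all genes tested. Vim and Socs3 stood at 0.02 each. In whole tissue, more cells of a type and more RNA per cell cannot be told apart.

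**Figure D1:**
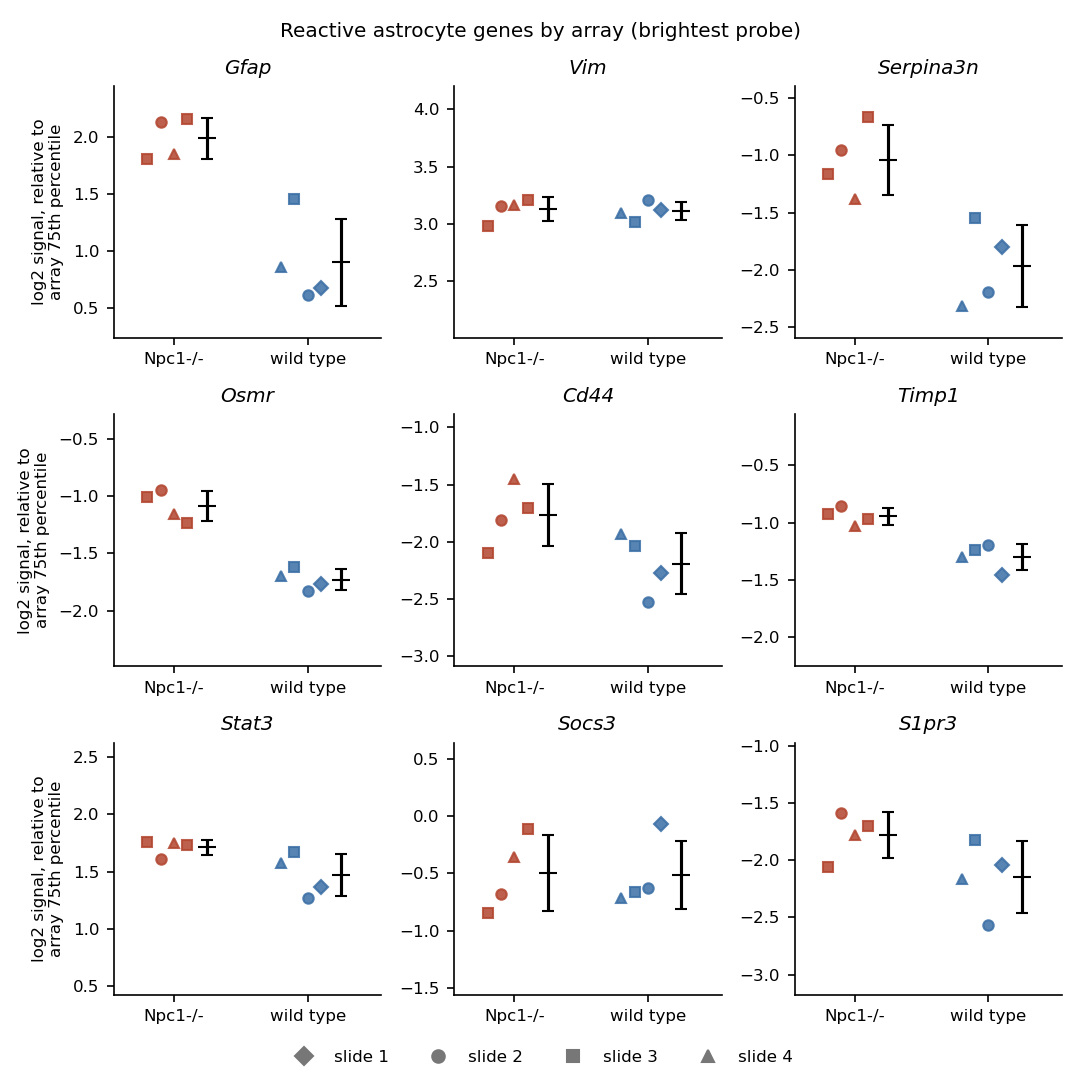
Log2 signal relative to the array's 75th percentile (vertical axes, each spanning 2.2 units) of the 9 tested reactive astrocyte genes in Npc1-/- (left, red) and wild-type (right, blue) cerebella, 1 point per array with its shape giving the slide, and mean ± SD in black (n = 4 each). Gfap, Serpina3n, Osmr and Timp1 do not overlap between genotypes, and Vim and Socs3 lie at the same level.

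Gfap encodes the glial fibrillary acidic protein, the intermediate filament of mature astrocytes. Its brightest probe, A_52_P52303 (chr11:102999540-102999599, minus strand), gave 1.81, 2.13, 1.85 and 2.15 on the Npc1-/- arrays, against 0.86, 1.45, 0.61 and 0.68 on the wild-type arrays. Wild-type replicate 2 stood above the other wild-type arrays and still below the lowest Npc1-/- array. The means were 1.98 ± 0.18 in Npc1-/- and 0.90 ± 0.38 in wild type (SD, n = 4 each), a log2 difference of 1.08 ± 0.19 (SE, 95% confidence interval 0.64 to 1.52) or 2.12-fold (1.56 to 2.88), with an adjusted p of 0.0516 by limma. Without wild-type replicate 2 the difference was 1.27 with an adjusted p of 0.00614, and without any 1 of the other 7 arrays the adjusted p was 0.193 or less and above 0.05. With the slide as a block the difference was 0.96 (adjusted p = 0.306), and it was 1.51, 0.53 and 0.99 within slides 2, 3 and 4, which held both genotypes and 1 wild-type array each.

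Over the 27164 probes tested one by one, 0.523% passed and 0.504% were higher in Npc1-/-. Of the 13 probes of the reactive astrocyte genes tested, 1 rose, that of Osmr, and in 6 every Npc1-/- array lay above every wild-type array, against 2.54% of all probes. The other two Gfap probes gave nearly the same difference as the brightest. The probe A_51_P395056 (chr11:102996643-102996703), printed 10 times on each array, read -0.77, -0.06, -0.65 and -0.16 in Npc1-/-, against -1.62, -0.90, -1.80 and -1.55 in wild type, a log2 difference of 1.06 ± 0.23 (SE, adjusted p = 0.152 over the 27164 probes tested). Its 10 spots on an array differed by an SD of only 0.04 to 0.08, against an SD of 0.35 between the Npc1-/- arrays and 0.39 between the wild-type arrays. The Gfap probe A_52_P540991 read -1.22, -1.20, -1.54 and -0.76 in Npc1-/-, against -2.31, -1.43, -2.64 and -2.35 in wild type, a difference of 1.00 ± 0.27 (SE, adjusted p = 0.31). In that probe wild-type replicate 2 reached into the Npc1-/- range, and on all 3 probes it was the highest wild-type array. The 60 bases of A_52_P540991 are spread over a span of 2450 bases (chr11:102998514-103000963), and the brightest probe, A_52_P52303, lies inside that span. A_52_P52303 reads other bases, which were not assigned to an exon or intron, so the transcript behind its signal is not known.

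Vim encodes vimentin, the filament that GFAP copolymerises with in reactive astrocytes and that endothelial cells, fibroblasts and Bergmann glia also make. It read 2.98, 3.16, 3.17 and 3.21 in Npc1-/-, against 3.09, 3.01, 3.21 and 3.12 in wild type. The genotypes overlapped, with a log2 difference of 0.02 ± 0.09 (SE) and a 95% interval of -0.19 to 0.23, or 0.877-fold to 1.17-fold (adjusted p = 0.955). The interval for Gfap, 0.64 to 1.52, lay wholly above that for Vim. A second Vim probe, A_52_P287532 (chr2:13516297-13516356), was well above background only on wild-type replicate 2, where it read -1.76, against -7.75 to -7.15 on the Npc1-/- arrays and -7.83 to -7.58 on the other wild-type arrays. Its raw signal there was 222, and the 4 spots listed nearest to it were also brighter on that array than on the other 7: Cxcl4 at 404 against 65.8 to 257, S100a5 at 169 against 4.11 to 13.4, Runx1 at 235 against 3.81 to 6.62, and E2f1 at 303 against 105 to 192. The part of that patch of the array in the Vim value was not tested, and the probe was used for no comparison.

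Within an array, Gfap, as read by its brightest probe, could be set against other astrocyte genes. These ratios were chosen after the values were seen and are given without a test. The log2 signal of Gfap minus that of Vim was -1.14 ± 0.13 in Npc1-/- and -2.21 ± 0.46 in wild type (SD, n = 4 each), a difference of 1.06. Gfap minus the mean of 18 genes of astrocyte and Bergmann glia identity was -1.64 ± 0.16 in Npc1-/- and -2.72 ± 0.44 in wild type, a difference of 1.07. Both ratios separated the genotypes without overlap. The brightest Gfap probe did so alone, and the genes it was set against differed little, so the ratios are no evidence beyond Gfap itself.

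**Figure D2:**
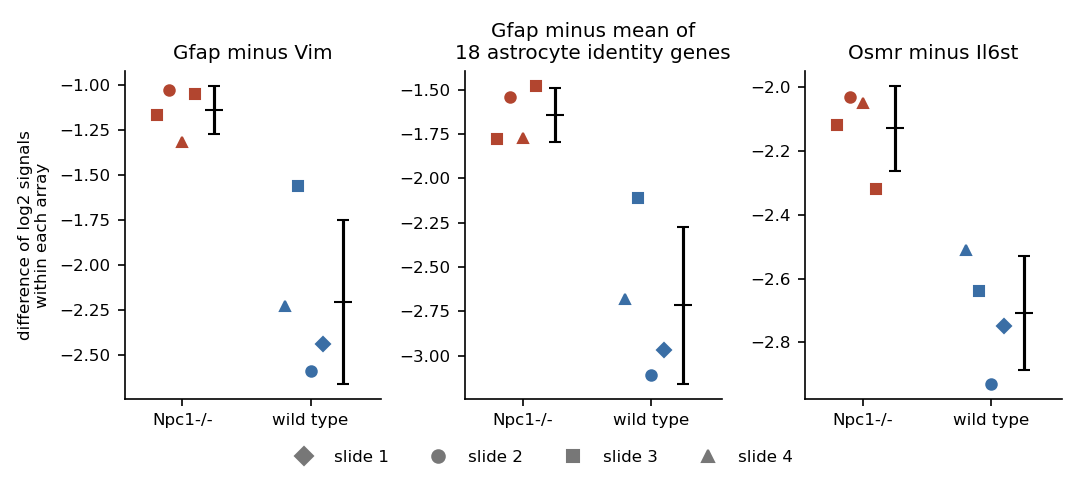
Difference of log2 signals within each array (vertical axes) for Gfap minus Vim, Gfap minus the mean of 18 astrocyte identity genes, and Osmr minus Il6st, in Npc1-/- (left, red) and wild-type (right, blue) cerebella, 1 point per array with its shape giving the slide, and mean ± SD in black (n = 4 each). In each panel all Npc1-/- arrays lie above all wild-type arrays, and wild-type replicate 2 is the nearest wild-type array in both Gfap panels.

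Serpina3n encodes a secreted serine protease inhibitor that is among the genes most raised in mouse reactive astrocytes. It read -1.16, -0.96, -1.38 and -0.67 in Npc1-/-, against -2.31, -1.54, -2.20 and -1.80 in wild type. Every Npc1-/- array was above every wild-type array, the nearest pair being Npc1-/- replicate 3 and wild-type replicate 2. The log2 difference was 0.92 ± 0.21 (SE, 95% interval 0.44 to 1.40), 1.89-fold, with an adjusted p of 0.138, and it was 1.24, 0.63 and 0.93 within the 3 slides.

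Timp1 encodes the tissue inhibitor of metalloproteinases that astrocytes secrete on inflammatory stimulation. Its brightest probe, A_52_P87713, read -0.93, -0.85, -1.03 and -0.97 in Npc1-/-, against -1.30, -1.24, -1.19 and -1.46 in wild type. The genotypes did not overlap, and the arrays within each genotype lay close together (SD of 0.07 in Npc1-/- and 0.11 in wild type). The difference was 0.36 ± 0.09 (SE, 95% interval 0.14 to 0.57), 1.28-fold, with an adjusted p of 0.234, and it was 0.34, 0.30 and 0.27 within the 3 slides.

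The dimmer Timp1 probe A_51_P512384 read -4.79, -4.67, -4.60 and -4.58 in Npc1-/-, against -5.07, -5.25, -4.95 and -5.15 in wild type, where it was above background on 3 of 4 arrays. These genotypes did not overlap either, with a difference of 0.44 ± 0.10 (SE, adjusted p = 0.172 over all probes tested). The probe that follows it directly in these coordinates, A_51_P512379, was above background on 3 Npc1-/- and 0 wild-type arrays and was not tested. It read -5.51, -5.52, -5.57 and -6.16 in Npc1-/-, against -5.92, -6.11, -6.72 and -5.97 in wild type, and no fold is given since the bound at background was under 1.

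Lcn2 encodes lipocalin-2, an iron-binding secreted protein that is strongly raised in mouse astrocytes by systemic inflammation. Its only probe was not well above background on any array, with readings of -7.55, -6.50, -7.20 and -6.90 in Npc1-/-, against -7.89, -6.02, -8.01 and -8.07 in wild type. The highest reading was that of wild-type replicate 2, and no fold is given. At this brightness a difference in Lcn2 was not detectable.

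**Figure D3:**
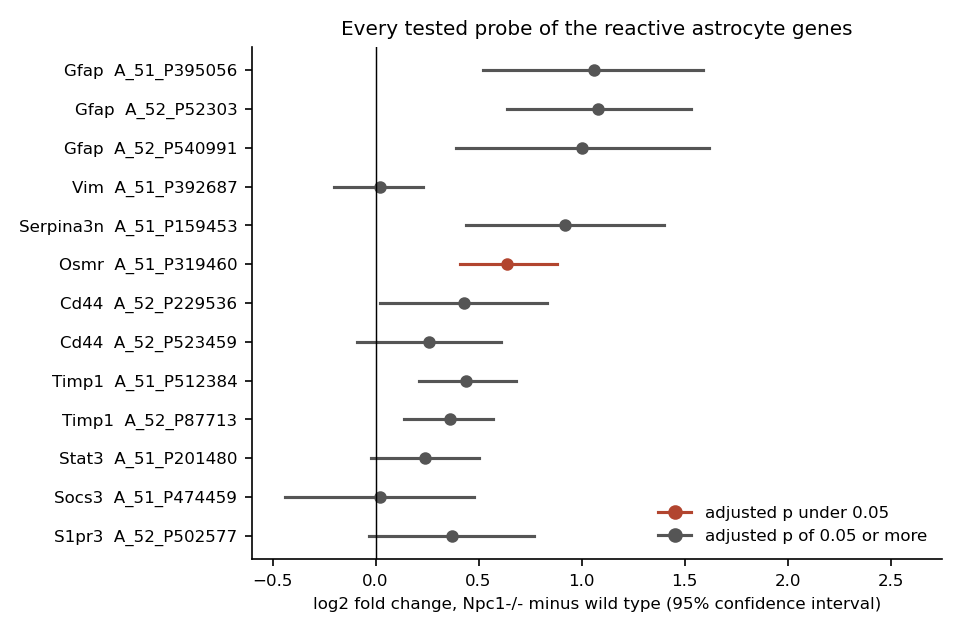
Log2 fold change, Npc1-/- minus wild type (horizontal axis), with its 95% confidence interval (lines) for each of the 13 probes of the reactive astrocyte genes that passed the filter on background, from the fit over all 27164 probes. All 13 points lie above 0, the 3 Gfap probes lie at 1.00 to 1.08, and the Osmr probe alone passed the adjusted threshold.

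Osmr encodes the subunit that makes the receptor for oncostatin M together with gp130, and it rose. It read -1.01, -0.94, -1.16 and -1.24 in Npc1-/-, against -1.70, -1.62, -1.83 and -1.77 in wild type. The groups did not overlap, and the gap between them was wider than the spread within either. The difference was 0.64 ± 0.10 (SE, 95% interval 0.41 to 0.87), 1.56-fold, with an adjusted p of 0.0293. It was 0.88, 0.50 and 0.54 within the 3 slides. The call did not hold with the slide as a block (0.63, adjusted p = 0.238), with the scan day as a block (0.64, adjusted p = 0.0701), or with the array's median in place of its 75th percentile (0.53, adjusted p = 0.457). It was also lost when any 1 array other than wild-type replicate 2 was left out, at adjusted p-values of 0.0548 to 0.123, while the difference stayed at 0.59 to 0.69 over all 8 such fits.

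A second Osmr probe, A_52_P495729, lay at background on all 8 arrays and was not tested. Its readings were -5.72, -5.50, -6.70 and -5.70 in Npc1-/-, against -7.00, -5.91, -7.92 and -7.48 in wild type. The signal of Osmr minus that of Il6st, which encodes its partner gp130, was -2.13 ± 0.13 in Npc1-/- and -2.71 ± 0.18 in wild type (SD, n = 4 each), a difference of 0.57 without overlap between the genotypes. This ratio too was chosen after the values were seen, and since Osmr alone separated the genotypes it is no separate evidence.

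Cd44 encodes the receptor for hyaluronan, an adhesion molecule of reactive astrocytes and of many immune cells. It read -2.10, -1.81, -1.45 and -1.71 in Npc1-/-, against -1.93, -2.04, -2.53 and -2.27 in wild type. The genotypes overlapped, with Npc1-/- replicate 1 below 2 of the wild-type arrays. The difference was 0.43 ± 0.17 (SE, 95% interval 0.03 to 0.82, adjusted p = 0.633). A second probe, A_52_P523459, printed 10 times per array, gave a difference of 0.26 ± 0.15 (SE, adjusted p = 0.811), and the remaining probe was at background on all arrays.

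S1pr3 encodes a receptor for sphingosine 1-phosphate, a lipid made from the sphingosine that NPC1-deficient lysosomes accumulate. It read -2.06, -1.59, -1.78 and -1.70 in Npc1-/-, against -2.17, -1.82, -2.57 and -2.04 in wild type. These ranges overlapped, and the difference was 0.37 ± 0.17 (SE, 95% interval -0.03 to 0.76, adjusted p = 0.727). Within the 3 slides it was 0.98, -0.06 and 0.38, so the slides did not share a direction. A second S1pr3 probe, A_51_P137523, was above background on 0 Npc1-/- arrays and 1 wild-type array and was not tested. Its mean was -5.99 in Npc1-/- and -5.60 in wild type, with overlap between the genotypes.

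Stat3 encodes the transcription factor that gp130 receptors activate, chiefly by phosphorylation of the protein, which arrays do not measure. It read 1.76, 1.61, 1.75 and 1.73 in Npc1-/-, against 1.58, 1.67, 1.27 and 1.37 in wild type. Only wild-type replicate 2 reached into the Npc1-/- range, above Npc1-/- replicate 2. The difference was 0.24 ± 0.11 (SE, 95% interval -0.01 to 0.49, adjusted p = 0.71), and the 10 spots of this probe on each array differed by an SD of 0.03 to 0.10. The Stat3 probe A_52_P569499 was above background on 2 Npc1-/- arrays and 1 wild-type array and was not tested.

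Socs3 encodes the feedback inhibitor whose transcription STAT3 drives. It read -0.85, -0.68, -0.36 and -0.11 in Npc1-/-, against -0.71, -0.66, -0.63 and -0.07 in wild type. The ranges covered each other almost fully, and the difference was 0.02 ± 0.20 (SE, adjusted p = 0.981). Its 95% interval, -0.44 to 0.48 still holds a difference as large as that of Cd44.

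The highest or lowest array within a genotype was the same in several of the genes. Wild-type replicate 2 was the highest wild-type array in 5 of the 9 (Gfap, Serpina3n, Osmr, Stat3 and S1pr3), and wild-type replicate 3 was the lowest in 5. Among the Npc1-/- arrays, replicate 4 was the highest in 4 and replicate 1 the lowest in 5. These counts were not made over all genes tested, so whether they are particular to these genes was not tested. Nearness to Gfap in pattern was taken as the root mean square difference of log2 signals centred over all 8 arrays, among 14733 genes above background on every array. This distance includes the genotype difference, so genes with a difference near that of Gfap rank near and genes without a difference rank far. It is no separate evidence of a shared pattern. The nearest named genes (no clone, RIKEN or predicted names) were Osgin1 (0.162), Itgb2 (0.182), Sp110 (0.185), Rnase1 (0.188) and Ncf4 (0.195). Itgb2 and Ncf4 are genes of leukocytes and microglia, encoding the common chain of the leukocyte integrins and a subunit of the phagocyte NADPH oxidase. Among all 14733 genes, named or not, Serpina3n ranked at 11 (0.225), Osmr at 83, S1pr3 at 231, Cd44 at 339, Timp1 at 444 and Stat3 at 656, while Vim ranked at 4748 and Socs3 at 8645.

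Other genes known to rise in reactive astrocytes of mice were examined as lists. In whole cerebellum, which cells gave their signals was not measured. A gene that met the filter on background only through its Npc1-/- arrays had to differ, and its call is given as a description. Of the 4 tested genes that rise after both inflammation and ischemia and are not among the 10, Aspg, an asparaginase gene, rose 3.11-fold (adjusted p = 0.00209). Cxcl10, which encodes an interferon-induced chemokine, met the filter only through the Npc1-/- arrays, being above background on all 4 of them and 0 wild-type arrays, and was at least 3.7-fold higher (adjusted p = 0.0236). Aspg read 1.21, 1.11, 1.27 and 1.22 in Npc1-/-, against -0.41, -0.05, -0.58 and -0.71 in wild type. The median log2 fold change was 0.77 over the 3 genes above background on all 8 arrays. Aspg passed whichever array was left out. Cxcl10 no longer met the filter when an Npc1-/- array was left out, had an adjusted p of 0.0789 without wild-type replicate 4, and had a log2 difference of 0.90 (adjusted p = 0.0355) with normexp background and quantile normalization, against 2.94 in the reported fit.

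The set linked to inflammation held 12 tested genes, of which 2 rose: C3, which encodes the central complement component (2.78-fold, adjusted p = 0.0261), and Psmb8, which encodes an immunoproteasome subunit (1.86-fold, adjusted p = 0.00661). Its median log2 fold change was 0.52 and 12 of 12 were positive. C3 read -1.48, -1.32, -1.39 and -1.21 in Npc1-/-, against -3.15, -2.14, -3.18 and -2.81 in wild type, but passed in only 1 of the 8 fits that left out an array, the one without wild-type replicate 2, with adjusted p-values up to 0.0997 in the other 7. Psmb8 passed whichever array was left out but not with median scaling (adjusted p = 0.154) or with the slide as a block (adjusted p = 0.116). Of the 9 tested genes of the set linked to ischemia, 2 rose: Cd109, which encodes a membrane glycoprotein (2.92-fold, adjusted p = 0.0318), and Emp1, which encodes epithelial membrane protein 1 (1.73-fold, adjusted p = 0.0118). The median of that set was -0.01. Cd109 was above background on 2 and Emp1 on 3 of the wild-type arrays, and between 0 and 2 of the set passed when 1 array was left out. The set had 0 of 6 genes past the threshold when the filter asked for all 8 arrays, which neither gene met, and 0 of 9 with quantile normalization, with median scaling, and with normexp background and quantile normalization. In the last of these Cd109 stood at a log2 difference of 0.63 (adjusted p = 0.0606) and Emp1 at 0.38 (adjusted p = 0.117), against 1.55 and 0.79 in the reported fit. With the slide as a block 0 genes of either set passed, Psmb8 standing at an adjusted p of 0.116 and Emp1 at 0.115.

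The cytokine pathway upstream of Stat3 and Socs3 was next. The number of genes with an unadjusted limma p under 0.05 is given beside each count of 0 as the unadjusted count, and over all genes tested 5.09% were higher and 2.31% lower in Npc1-/- at that level. Of 8 ligands that signal through gp130, 5 were tested and 0 passed (unadjusted count 0), with a median of -0.08, while Il6 and Osm did not pass the filter on background and Lif was not found by name on the array. The brightest tested ligands were Cntf, at -0.08 ± 0.16, and Il27, at -0.14 ± 0.30 (log2 difference ± SE). Of the 5 other receptor chains 0 passed (unadjusted count 1, median 0.07), among them Il11ra1 at -0.15 ± 0.15 and Cntfr at -0.05 ± 0.14. The chains Il6st and Lifr are named after their values were seen. Il6st stood at 0.07 ± 0.10 (adjusted p = 0.832) and Lifr, the leukemia inhibitory factor receptor gene, at 0.60 ± 0.11 (adjusted p = 0.0652).

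Of the 11 tested genes for JAK kinases, other STATs and adaptors 0 passed by limma (unadjusted count 1, median 0.09), with Ptpn11 at -0.05 ± 0.08 and Grb2 at -0.07 ± 0.10. Of 13 inhibitors of the pathway 0 passed (unadjusted count 1, median -0.09), with Pias2 at -0.03 ± 0.09 and Ptpn2 at -0.09 ± 0.11. Of 15 genes that have been linked to STAT3 as targets, 2 rose: Icam1, which encodes an adhesion molecule for leukocytes (2.46-fold, adjusted p = 0.00876), and Ccl2, which encodes the chemokine that attracts monocytes (4.72-fold, adjusted p = 0.0195, above background on 3 wild-type arrays). Both are also driven by inflammatory factors other than STAT3, and both are made by several cell types. The median of the 15 was 0.35. Ccl2 did not pass without Npc1-/- replicate 3, wild-type replicate 3 or wild-type replicate 4 (adjusted p up to 0.0638), so 1 of the 15 rose in those fits, and 0 rose with the slide as a block. Ccl2 had a log2 difference of 0.89 (adjusted p = 0.0704) with normexp background and quantile normalization, against 2.24 in the reported fit, and an adjusted p of 0.0653 with quantile normalization alone. It was not tested under the filter on all 8 arrays. Icam1 did not pass when the probes of the gene were averaged (1.12, adjusted p = 0.239).

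**Figure D4:**
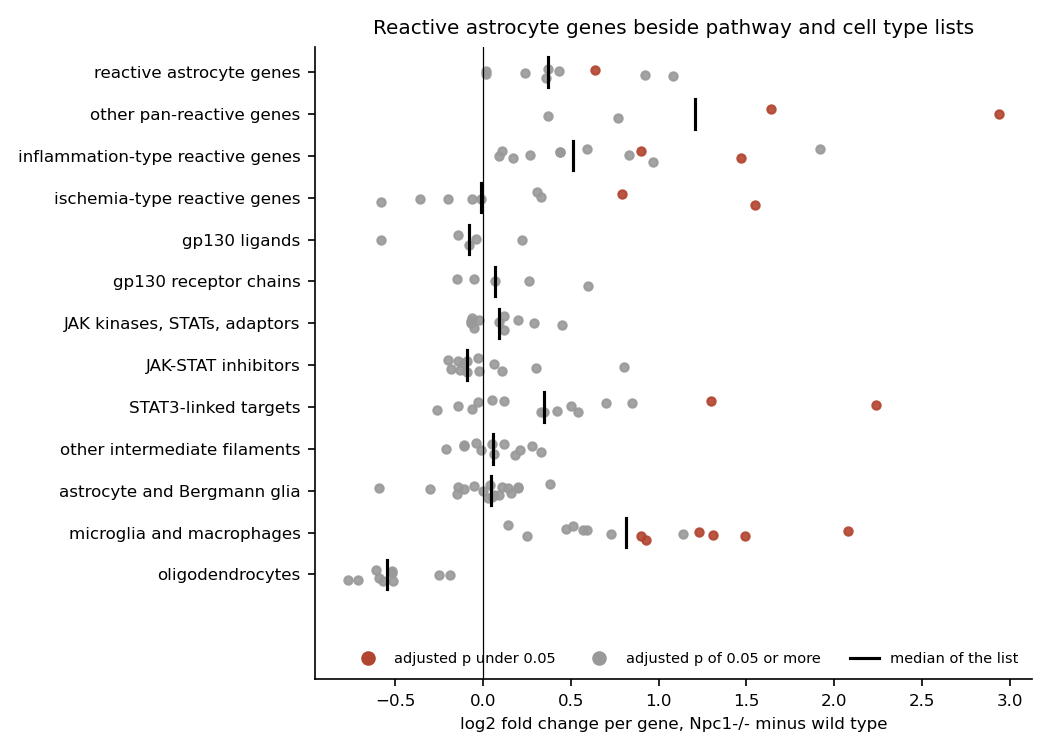
Log2 fold change per gene, Npc1-/- minus wild type (horizontal axis), for the reactive astrocyte genes and 12 lists of pathway and cell type genes, with red points for genes under the adjusted threshold and a black bar at each list's median. The medians stand at 0.37 for the reactive astrocyte genes, 0.82 for microglia and macrophages, 0.05 for astrocyte and Bergmann glia identity and -0.55 for oligodendrocytes.

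Among the structural and extracellular partners of the 10 genes, 0 of 12 other intermediate filament and lamina genes passed (unadjusted count 0, median 0.05), including the neurofilament genes Nefl at 0.12 ± 0.19 and Nefm at 0.21 ± 0.24. Of 8 tested genes of sphingosine 1-phosphate signalling 0 passed (unadjusted counts 1 higher and 1 lower, median -0.13), including Sphk1, a kinase that makes the lipid, at 0.31 ± 0.13, and Sgpl1, the lyase that breaks it down, at 0.11 ± 0.12. Of 12 tested ligands and partners of CD44 0 passed (unadjusted count 1, median -0.05), including the osteopontin gene Spp1 at 0.51 ± 0.17, whose genotypes did not overlap, and the brevican gene Bcan at 0.18 ± 0.13. Of 9 tested genes for metalloproteinases and their inhibitors 1 passed: Mmp12, the macrophage elastase gene, at least 1.51-fold higher (adjusted p = 0.0464). It met the filter only through the Npc1-/- arrays, being above background on 0 wild-type arrays, and of the 7 genes above background on all 8 arrays 0 passed (median 0.14). Mmp12 passed in 1 of the 4 fits without 1 wild-type array and was not tested in those without an Npc1-/- array.

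The levels of cell type markers stood beside these values as follows, each level being the sum over the list of linear signals in units of the array's 75th percentile. The brightest probes weigh most in such a sum, and brightness is not comparable between probes. Among the astrocyte genes, for example, the mean log2 signal in Npc1-/- was 7.94 for Sparcl1 and 0.91 for Sox9. For the 18 genes of astrocyte and Bergmann glia identity the sum was 662 to 677 in Npc1-/- and 626 to 713 in wild type, 0 of 18 passed by limma (unadjusted counts 1 higher and 1 lower), and the median log2 fold change was 0.05. The brightest were Sparcl1, which encodes a secreted matrix protein, at 0.14 ± 0.09, and Aldoc, the aldolase C gene, at 0.00 ± 0.10 (SE). The genotypes overlapped in the summed level of these astrocyte genes and did not in the brightest Gfap probe. In the Gfap probe A_52_P540991 they overlapped too.

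For the 14 genes of microglia and macrophages the sum was 23.3 to 29.8 in Npc1-/- and 13.1 to 15.5 in wild type, without overlap. In that list 6 of 14 rose and 0 fell (median 0.82), led by Cd68, which encodes a lysosomal protein of phagocytes (4.23-fold, adjusted p = 0.00045), Trem2, a microglial lipid receptor gene (2.82-fold, adjusted p = 0.00053), and Tyrobp, which encodes its signalling adaptor (2.49-fold, adjusted p = 0.00676). Between 3 and 5 of them rose when 1 array was left out, and 3 with the slide as a block, Cd68 and Trem2 passing each time. Of the 14 microglial markers 12 were well above background on all 8 arrays. Cd44, Timp1, Osmr and Stat3 are also made by cells other than astrocytes, and the part of microglia and macrophages in the differences of the reactive astrocyte genes was not tested. Their part in the differences of the other reactive genes, among them Cxcl10, C3 and Psmb8, was not tested either.

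For the 10 oligodendrocyte genes the sum was 249 to 303 in Npc1-/- and 330 to 434 in wild type, also without overlap. The list had a negative log2 fold change in 10 of 10 (median -0.55), but 0 passed by limma (unadjusted count 8), with Mbp, the myelin basic protein gene, at -0.19 ± 0.12. The 10 pericyte, fibroblast and meningeal genes summed to 24.2 to 30.5 in Npc1-/- and 20.4 to 22.5 in wild type, again without overlap. Of these genes 0 of 10 passed limma's threshold (unadjusted count 5, all higher in Npc1-/-, median 0.27), with Col1a2 at 0.57 ± 0.20 and Igf2 at 0.42 ± 0.15. Cells of these types also make Vim, Cd44 and Timp1, and their part in the values of those genes was not tested.

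The remaining lists of other cells each had 0 genes past limma's threshold, with unadjusted counts of 2 for the granule cell genes, all lower in Npc1-/-, and 0 for the others. The 10 endothelial genes summed to 19.3 to 22.4 in Npc1-/- and 18.5 to 21.1 in wild type (median 0.01), with Cldn5 at -0.02 ± 0.13 and Ly6c1 at 0.20 ± 0.18. Of 8 neutrophil genes 4 were tested, summing to 0.77 to 1.13 in Npc1-/- and 0.661 to 1.06 in wild type (median 0.28), with S100a9 at 0.17 ± 0.22 and Mpo at 0.38 ± 0.26. The 6 tested choroid plexus and ependymal genes summed to 2.50 to 10.4 in Npc1-/- and 5.35 to 7.64 in wild type (median 0.13), with Ttr at -0.35 ± 0.66 and Clic6 at 0.05 ± 0.34. The 6 Purkinje cell genes summed to 240 to 271 in Npc1-/- and 255 to 330 in wild type (median -0.22), with Itpr1 at -0.03 ± 0.12 and Pcp4 at -0.26 ± 0.13. The 6 granule cell genes summed to 171 to 220 in Npc1-/- and 199 to 241 in wild type (median -0.25), with Cbln1 at -0.21 ± 0.14 and Zic1 at -0.26 ± 0.12.

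**Figure D5:**
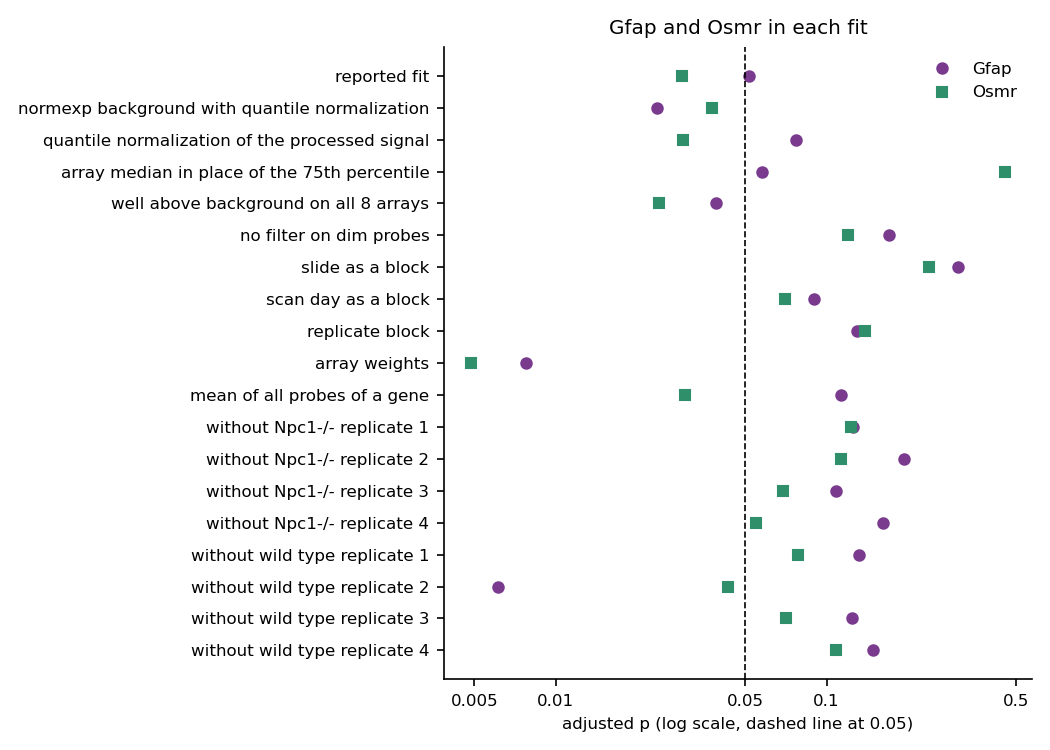
Adjusted p of limma (horizontal axis, log scale, dashed line at 0.05) for Gfap (purple circles) and Osmr (green squares) in the reported fit and 18 others, each with another processing choice or with 1 array left out (normexp background and quantile normalization were changed together). Gfap lies under 0.05 in 4 and Osmr in 6 of the 18, and both lie there without wild-type replicate 2.

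Gfap and Osmr sat on either side of the threshold in the reported fit, and each changed sides with single choices. Over the 18 other fits the log2 difference of Gfap was 0.96 to 1.27 and that of Osmr 0.47 to 0.71, both positive in all 18. Serpina3n ranged from 0.69 to 1.06 and Timp1 from 0.25 to 0.47, each passing in 1 fit. Cd44, Stat3 and S1pr3 were positive in all 18 and passed in 0 by limma, with smallest adjusted p-values of 0.251, 0.216 and 0.325.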

How the data were processed

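Total RNA of cerebella was labelled with Cy3 and put on Agilent one-colour arrays, per the labels' protocols. The deposited intensity values are scanner output read with Agilent Feature Extraction (version 9.5 per the submitters' processing notes). Their background had been subtracted array by array, per the file headers, and no scaling between arrays is recorded there. Groups and replicate numbers came from the sample titles.

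Spots of controls were left out, spots with an outlier flag were set to missing (74 to 115 per array), and log2 of the processed signal was taken relative to the array's 75th percentile of spots other than controls. Spots of a probe were averaged. Probes had to be well above background on 4 or more of the 8 arrays to be tested (27164 of 41174), and a gene was represented by its brightest probe (17983 genes). Gene names were brought up to date with RefSeq's table for GRCm38.p6, using accessions for 22951 probes, symbols for 6659 and synonyms for 3109, while 8455 probes stayed with the array's own name. Coordinates of probes were taken as the files give them (mm7), and promoter sequences are RefSeq's, in GRCm38.p6.

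The genotype difference was fitted in R 4.3.3 by limma 3.58.1, using lmFit and eBayes with no covariate, as a two-sided test adjusted by Benjamini-Hochberg over all genes or all probes tested. The p-values set each difference against the spread between these samples, as moderated by eBayes. With 4 arrays per genotype, the number of arrays limits the precision. A gene below background on all arrays of a genotype is given a bound, "at least N-fold", from the lowest signals above background. The fit was tested on simulated data with independent noise for each gene. The simulation held no effect of slide, scan day or array, so it does not show how the fit handles them. Figures were drawn with matplotlib 3.10.9.

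Named genes were the 10 genes with every probe, Npc1, up to 3 genes per list with the largest difference among those past the threshold (or the 2 brightest where none passed), and the 5 named genes nearest to Gfap in pattern. A few items chosen this way are left out of the text. The genes, lists and tests were chosen with earlier results of these data known, so counts over them are descriptions. Alternatives were another background correction, normalization, scaling, filter and choice of probe, array weights, the slide, scan day or replicate number as a block, and leaving out each array. Slide 1 held wild-type replicate 4 alone. Illumina arrays were not analysed here.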

Additional observations from a re-analysis of the deposited data

Results flagged for a closer look

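In 9 of the 134 groups of 4 arrays examined (the 20 probes of the reactive astrocyte genes and the other named genes), 1 array lay so far from the other three that its gap, divided by the range of the group, exceeded Dixon's limit for 4 values, which chance gives in about 1 in 20 groups. In 4 of the 9 the array was wild-type replicate 2, the array with the fewest probes above background.

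Among the reactive astrocyte genes, the second Vim probe had wild-type replicate 2 at -1.76 and the other wild-type arrays at -7.83 to -7.58 (gap over range 0.958). Lcn2 had the same array at -6.02 and the others at -8.07 to -7.89 (0.915), and the Cd44 probe that lay at background had it at -5.72 and the others at -7.82 to -7.63 (0.906). The Timp1 probe A_51_P512379 had Npc1-/- replicate 4 at -6.16 and the other Npc1-/- arrays at -5.57 to -5.51 (0.9). These 4 probes entered no test. Socs3 had wild-type replicate 4 at -0.07 and the others at -0.71 to -0.63 (0.867), and without that array its log2 difference was 0.17.

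Of the other named genes, Emp1 had Npc1-/- replicate 1 at -3.02 and the others at -2.74 to -2.72 (0.933). Cldn5 had Npc1-/- replicate 4 at 3.10 and the others at 2.63 to 2.70 (0.852). Mmp12, at background in wild type, had wild-type replicate 2 at -5.83 and the others at -7.93 to -7.75 (0.913). Cd109 had wild-type replicate 1 at -5.84 and the others at -4.90 to -4.75 (0.865).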

How the results depend on the processing

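Over the 18 other fits, of which 1 changed background and normalization together and each of the rest changed 1 choice or left out 1 array, the difference of each of Gfap, Serpina3n, Osmr, Cd44, Timp1, Stat3 and S1pr3 kept its positive sign, while the calls moved. Of the reactive astrocyte genes 1 passed in the reported fit, 2 (Gfap and Osmr) with normexp background and quantile normalization together and with the filter asking for all 8 arrays, 4 (those 2, Serpina3n and Timp1) with array weights, and 0 with median scaling, no filter on dim probes, or the slide, scan day or replicate number as a block. Of their probes 1 passed in the reported fit, 7 with array weights and 0 with median scaling, no filter, or any of those blocks. Without 1 array, 0 to 2 genes and 0 to 2 probes passed, and the median difference was 0.31 to 0.48. That median was 0.71 within slide 2, 0.18 within slide 3 and 0.38 within slide 4, each resting on 1 wild-type array. Vim, near 0 throughout, took a negative sign with median scaling (-0.09) and array weights (-0.01) and spanned -0.01 to 0.07 without 1 array. Socs3 was at 0.00 with quantile normalization, -0.09 with median scaling and -0.32 with array weights, and spanned -0.11 to 0.17 without 1 array.

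Over all genes 138 passed in the reported fit, 87 with quantile normalization, 75 with median scaling, 88 with the filter on all 8 arrays, 59 with no filter, 38 with the slide block, 27 with the replicate block and 309 with array weights, of which 79.3% were higher in Npc1-/-, against 95.7% in the reported fit. Without 1 array 55 to 148 passed. Of the genes in the other lists 15 passed in the reported fit, 9 with median scaling, 6 with no filter, 5 with the slide block, 2 with the replicate block, 31 with array weights and 7 to 15 without 1 array. Median scaling moved the median of all genes by -0.11. The replicate numbers were not taken to pair the samples, since the correlations of same-numbered arrays were 0.15, 0.04, -0.44 and 0.20 and only 2 of the 4 were highest with their own number. The cause of these shifts was not tested, beyond the fewer samples or genes that a setting holds. With 4 arrays per genotype, and with Lcn2 and 6 other probes of these genes near background, small differences were not detectable.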
